A study of Mus musculus with 8 samples.

Results

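Foxo1, Foxo3, Bcl6, Tgfb1, Tgfbr1, Tgfbr2, Smad3, Smad4, Smad7 and Ski, 10 genes of the FOXO and TGF-beta pathways that are linked to stem cell quiescence, were examined in LSCs sorted from CML mice. They were chosen by symbol, all 10 were found among the 15576 rows of the count table, and all 10 passed the filter on low counts that left 11937 genes for testing. The mice were BCR-ABL×SCL-tTA double transgenic C57BL/6 animals. In this model a transactivator driven by SCL regulatory sequence turns on BCR-ABL in stem and progenitor cells once tetracycline is removed, so untreated and treated mice alike carried both transgenes. The 4 CML libraries came from untreated mice. The 4 CML-TKI libraries came from mice gavaged on alternate days with imatinib, a tyrosine kinase inhibitor that blocks BCR-ABL, at 400 mg/kg over 4 weeks according to the labels, while the study's text gives a lower dose for this RNA-seq comparison, so the dose of these libraries is in conflict between the sources. The age of the mice, and whether each library came from a separate animal, are not given in the labels.

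FOXO1 and FOXO3 are forkhead transcription factors that AKT phosphorylates and keeps out of the nucleus. When AKT signalling is low they enter the nucleus and induce genes of cell cycle arrest, oxidant defence and autophagy, and FOXO3 is known for maintaining normal and leukaemic stem cells in quiescence. BCL6 is a zinc finger repressor whose gene is a FOXO target and is repressed by STAT5, a transcription factor that BCR-ABL activates. TGF-beta1 is a secreted ligand that binds the type II receptor TGFBR2, which then phosphorylates the type I receptor TGFBR1. The type I receptor phosphorylates SMAD2 and SMAD3, which act in the nucleus with SMAD4. SMAD7 is the inhibitory SMAD of the pathway, and SKI represses SMAD-driven transcription. In haematopoietic stem cells this pathway is known for restraining cell division.

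Several features of the libraries bear on every value given here. Total counts ranged from 4939644 to 8620101 in the CML libraries and from 1041552 to 5104268 in the CML-TKI libraries, and CML-TKI 3 was the shallowest. A count of 3 equalled 0.348 to 0.607 CPM (counts scaled to the library total) in the former and 0.588 to 2.88 CPM in the latter, a floor that covers counting error only. The fourth CML column is named 5 and is called CML 5. The labels number the CML samples 1 to 4, so this column was matched to the group by its name and to no single sample. CML 1, CML 2 and CML 3 resembled each other far more than any other libraries did. The chi-square per gene between library pairs was 3.7 to 4.93 among these 3 libraries, 56.8 to 60.9 between them and CML 5, and 26 to 69.0 among the CML-TKI libraries, where 1 is the value for sampling noise alone. The spread of the CML group therefore rests largely on CML 5, and results with CML 1 to 3 summed to 1 library are given beside the calls.

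The RNA of the sorted cells did not follow the labelled gate equally in both groups. The labels give Lin-Sca1+cKit+Flt3-CD150-CD48+ for all 8 libraries, while the study's text defines LSCs as CD150-positive and CD48-negative. LSC is therefore used here only as the study's name for the sorted cells, and groups are called by their libraries. Slamf1, which encodes CD150, was at 28.8 to 37.5 CPM in the CML libraries and at 0.616 to 6.53 CPM in the CML-TKI libraries. Cd48 was at 3.84 to 6.36 CPM and at 39.6 to 177 CPM, respectively. Kit, which encodes the gate marker cKit, was at 759 to 1017 CPM in untreated mice and at 193 to 289 CPM after imatinib. The gate gene Flt3 (15.6 to 17.1 against 7.70 to 62.8 CPM) overlapped between the groups. Ly6a, which encodes the gate marker Sca1, was at 33.0 to 38.2 CPM in the CML libraries and overlapped only through CML-TKI 1 (44.0 CPM). CML-TKI 2, 3 and 4 held 9.54, 8.71 and 1.55 CPM of Ly6a. The summed level of 10 HSC marker genes was 1483 to 1667 CPM in the CML libraries and 57.9 to 473 CPM in the CML-TKI libraries, and 9 of the 10 were lower without overlap. Mecom, Procr and Fgd5 were at 0 in CML-TKI 2 and CML-TKI 4. The summed level of 12 granulocyte markers was 153 to 264 CPM and 1475 to 8531 CPM, and that of 8 monocyte and macrophage markers was 228 to 302 CPM and 1364 to 6987 CPM. All 8 of the latter were higher without overlap, as were 8 of the 12 granulocyte markers. Megakaryocyte markers summed to 1461 to 1761 CPM and 48.3 to 604 CPM. The sum of 10 proliferation markers was 1266 to 2030 CPM and 2340 to 3536 CPM, and 3 of the 10 were higher without overlap. In CML-TKI 3 lymphoid markers summed to 270 CPM, against at most 50.1 CPM in the other CML-TKI libraries. The erythroid list summed to 23928 CPM there, against at most 877 CPM, and the globin genes Hba-a1 and Hbb-bt made up 99.0% of that sum. Klf1 (5.44 CPM), Epor (1.09 CPM) and Car1 (4.36 CPM) of the same list were lower in CML-TKI 3 than in any CML library. Fewer cells of a type and less RNA per cell cannot be told apart in bulk samples, and the part of these shifts in the results below was not tested.

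The CML-TKI libraries held less Smad3 and Ski mRNA and more Bcl6 mRNA than the CML libraries. Smad3 was 3.52-fold lower, Ski was 1.86-fold lower and Bcl6 was 6.99-fold higher. The other 7 members did not pass the threshold of an adjusted p of 0.05. Of the 10 members, 1 was called higher, where 6.29% of all genes tested were, and 2 were called lower, where 3.93% of all genes were. Without overlap between the groups, 1 member was higher, where 10.3% of all genes were, and 3 members were lower (Smad3, Ski and Foxo3), where 13.1% of all genes were. The share of members in the higher classes was thus close to the background. The median log2 fold change was -0.58 over the members and -2.89e-04 over all genes tested, and the median absolute log2 fold change was 0.75 and 0.52, respectively. With CML 1 to 3 summed to 1 library, 0 members passed the edgeR threshold, while an unadjusted p under 0.05 was reached by 1 higher and 3 lower members. The share of all genes at that p was not computed. With all libraries, DESeq2 called 1 member higher and 3 lower, and limma-voom called 1 higher and 4 lower. Of all 11937 genes, DESeq2 called 1154 higher and 1003 lower, and limma-voom 1244 and 1300, more than edgeR did.

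**Figure D1:**
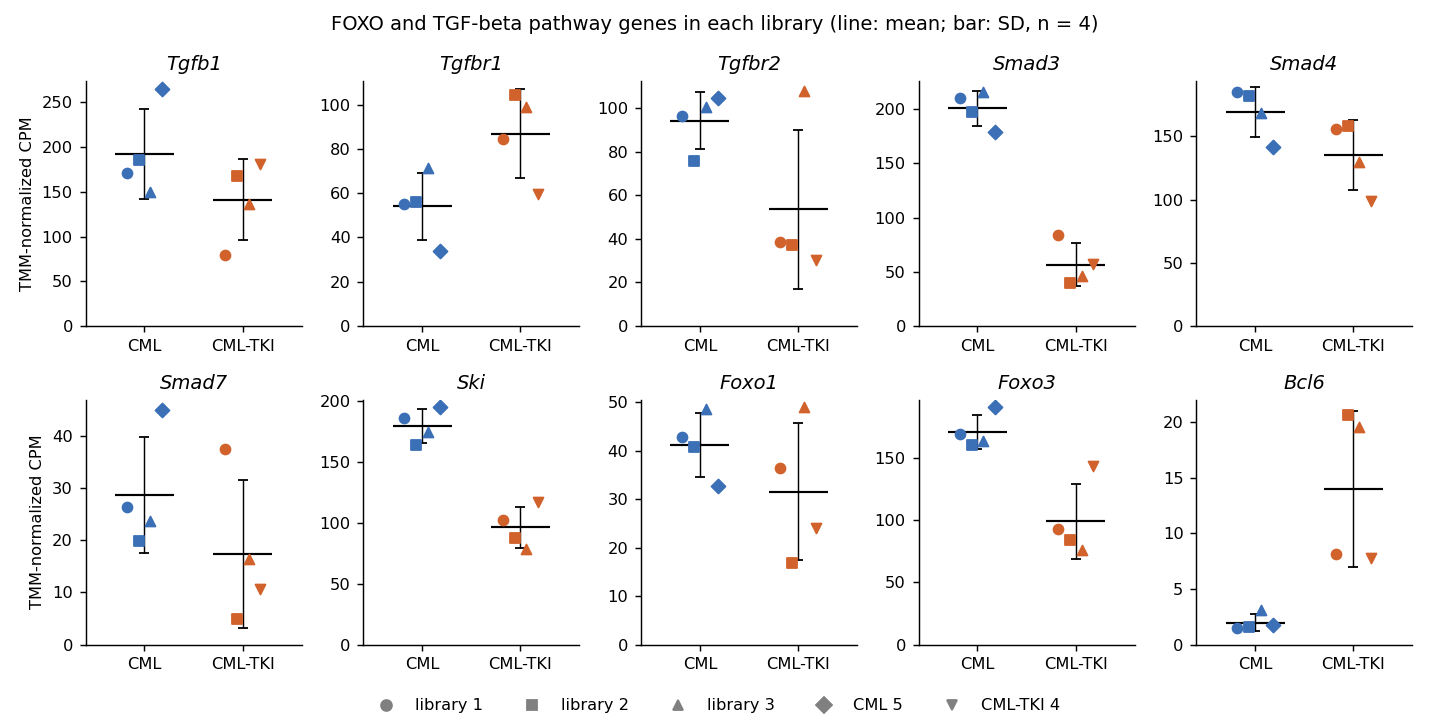
TMM-normalized CPM of each member (vertical axis, own scale in each panel) in the 4 CML and the 4 CML-TKI libraries. Points are single libraries, the horizontal line is the mean and the bar is the SD. Bcl6 runs from 1.49 to 3.07 CPM in untreated mice and from 7.75 to 20.6 CPM after imatinib, while Smad3 runs from 179 to 216 CPM and from 39.4 to 84.0 CPM.

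The ligand gene Tgfb1 was measured at 171, 185, 149.9 and 265 CPM in CML 1, 2, 3 and 5. It was at 79.1, 168, 136 and 181 CPM in CML-TKI 1 to 4. The ranges overlapped, and only CML-TKI 1 and CML-TKI 3 were below all CML libraries. Means were 193 ± 50.1 CPM in CML libraries against 141 ± 45.4 CPM after imatinib (SD, 4 libraries each). The log2 fold change of -0.45 had a 95% interval of -1.11 to 0.21 (adjusted p = 0.375). A change of Tgfb1 was not detectable with these libraries. Of its relatives, Tgfb3 was at 4.23 to 4.8 CPM in CML libraries and at 9.25, 0, 6.53 and 0 CPM in CML-TKI 1 to 4 (log2 fold change -0.26, adjusted p = 0.920). Tgfb2 was at most 0.410 CPM in CML libraries and at most 5.44 CPM in CML-TKI libraries, and was not tested.

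The fitted differences of the receptor pair had opposite signs, and neither gene passed the threshold. Tgfbr2, the ligand-binding type II receptor, was at 96.2, 75.6, 100.6 and 104 CPM in the CML libraries. In CML-TKI 1, 2 and 4 it was at 38.7, 37.3 and 30.2 CPM, below every CML library. CML-TKI 3 held 108 CPM, above all the others. With that library the log2 fold change was -0.86 (95% interval -1.72 to 0.012, adjusted p = 0.200). Without it the log2 fold change was -1.40 and the adjusted p was 0.00791. Tgfbr2 was also called by limma-voom, which gives libraries unequal weights (log2 fold change -1.22, adjusted p = 0.0137). CML-TKI 3 was also the library with the high globin genes and lymphoid marker sum, and their part in its Tgfbr2 level was not tested.

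Tgfbr1, the signalling type I receptor, was at 54.9, 55.8, 71.2 and 34.0 CPM in CML libraries. The CML-TKI libraries held 84.5, 104, 99.1 and 59.4 CPM. Only CML-TKI 4 was below a CML library, CML 3. The log2 fold change was 0.68 (95% interval 0.057 to 1.31), with an adjusted p of 0.157. Per kilobase of transcript, the level of Tgfbr2 over that of Tgfbr1 was 1.25, 0.963, 1.0 and 2.19 in CML 1, 2, 3 and 5. In CML-TKI 1 to 4 this ratio was 0.325, 0.254, 0.774 and 0.362, so every CML-TKI library lay below every CML library. The ratio was computed after both genes had been seen and was not tested. The co-receptor gene Tgfbr3 averaged 212 ± 20.1 CPM in CML libraries and 37.4 ± 25.8 CPM in CML-TKI libraries. Its groups did not overlap, and its adjusted p was 0.0544.

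Smad3, the receptor-activated SMAD, had the lowest adjusted p of the 10 members. Its levels were 210.3, 198, 216 and 179 CPM in CML libraries. They were 84.0, 39.4, 45.7 and 57.1 CPM in CML-TKI libraries. The highest CML-TKI library was below the lowest CML library by more than the whole range of the CML group. Means were 201 ± 16.2 and 56.6 ± 19.7 CPM (SD, 4 libraries each). The log2 fold change was -1.82 ± 0.26 (SE), with an adjusted p of 0.00281. Smad3 was called in each of the 8 fits that left out 1 library, with adjusted p-values of at most 0.0149. With CML 1 to 3 summed, the log2 fold change was -1.79 and the adjusted p was 0.0685. Smad3 lies on chromosome 9 at 63646767 to 63757994 of GRCm38, on the minus strand, with 9 exons. Its close relative Smad2 was at 96.6 ± 25.7 CPM in CML libraries and at 85.8 ± 17.9 CPM in CML-TKI libraries, with a log2 fold change of -0.17 (95% interval -0.76 to 0.42, adjusted p = 0.742). The difference between the changes of Smad3 and Smad2 was not tested.

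Smad4, the shared partner of the receptor-activated SMADs, was at 185, 182, 168 and 141 CPM in CML libraries. Its levels in CML-TKI libraries were 155, 158, 129.6 and 98.5 CPM, and the ranges overlapped. The log2 fold change of -0.32 (95% interval -0.80 to 0.16) had an adjusted p of 0.389. Smad7, the inhibitory SMAD, was at 26.4, 19.9, 23.6 and 44.9 CPM in CML libraries. In CML-TKI libraries it was at 37.5, 4.93, 16.3 and 10.6 CPM. CML-TKI 1 stood within the CML range, and the remaining CML-TKI libraries were below it. The log2 fold change was -0.72 with a wide 95% interval of -1.98 to 0.55 (adjusted p = 0.469). It went from -1.52 to -0.40 as single libraries were left out.

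Ski, the nuclear repressor of SMAD complexes, was at 186, 164, 174 and 195 CPM in CML libraries. After imatinib it was at 102, 87.1, 78.4 and 117 CPM. Each CML-TKI library was below each CML library. The means of 179.7 ± 13.8 and 96.2 ± 17.0 CPM (SD, 4 libraries each) gave a log2 fold change of -0.90 ± 0.20 (SE) and an adjusted p of 0.0203. The call was kept in 4 of the 8 fits that left out 1 library. It was lost without CML 1 (adjusted p = 0.0806), CML 2 (0.0570), CML 3 (0.0634) or CML-TKI 2 (0.0520), while the log2 fold change stayed between -1.01 and -0.80. With CML 1 to 3 summed, the adjusted p was 0.209. Ski lies on chromosome 4 at 155154075 to 155222592 of GRCm38, minus strand, with 7 exons. The related repressor Skil was at 23.5 to 53.9 CPM in CML libraries and at 145, 16.6, 39.2 and 17.6 CPM in CML-TKI 1 to 4 (adjusted p = 0.778).

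**Figure D2:**
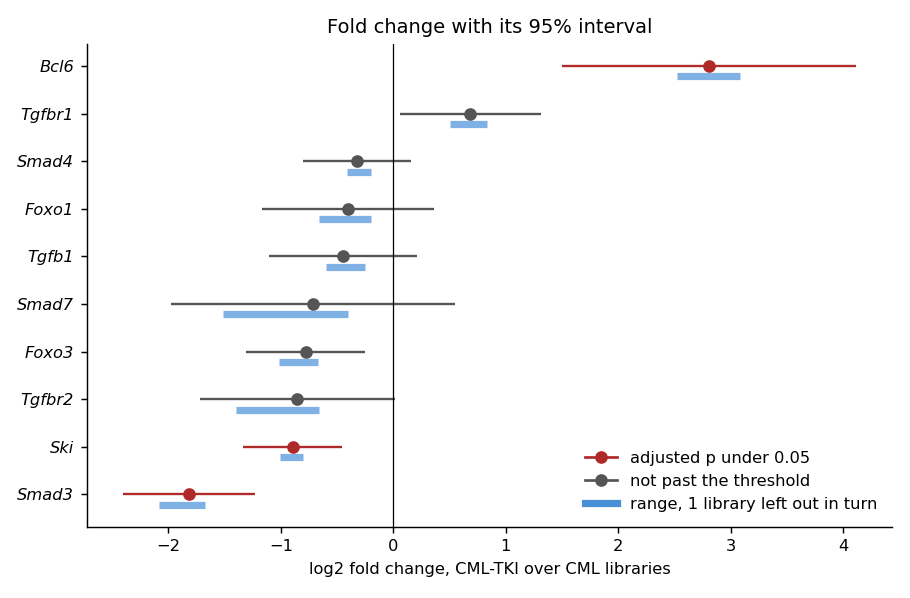
Log2 fold change of each member, CML-TKI over CML libraries (horizontal axis), as points with 95% intervals, and the range over the 8 fits that each left out 1 library as a thick bar. Smad3, Ski and Bcl6 are past the adjusted threshold, and the range of Tgfbr2 reaches -1.40 while that of Smad7 runs from -1.52 to -0.40.

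Foxo3 levels of the 2 groups did not overlap, but the gene missed the threshold. Its levels were 169, 161, 164 and 191 CPM in CML libraries. They were 93.0, 84.4, 76.2 and 144 CPM in CML-TKI libraries, so CML-TKI 4 stood nearest to the CML group. The means of 171 ± 13.8 and 99.3 ± 30.4 CPM (SD, 4 libraries each) gave a log2 fold change of -0.78 (95% interval -1.31 to -0.25) and an adjusted p of 0.0649. Foxo3 was called without CML-TKI 4 (log2 fold change -1.02, adjusted p = 0.0226). It was also called by DESeq2 (adjusted p = 0.0102) and by limma-voom (adjusted p = 0.0376). With CML 1 to 3 summed, the adjusted p was 0.327.

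Foxo1 gave no such separation. It was at 42.9, 40.8, 48.6 and 32.6 CPM in CML libraries and at 36.4, 16.9, 49.0 and 24 CPM in CML-TKI libraries. The highest levels, in CML-TKI 3 (from 45 counts) and CML 3 (from 253 counts), were nearly alike. The log2 fold change was -0.40 (95% interval -1.17 to 0.36, adjusted p = 0.503). Reads from an antisense transcript that shares 674 exonic bases with Foxo1 cannot be told apart if counting ignored the strand. Foxo4, a further FOXO factor, was at 56.6 ± 4.51 CPM in CML libraries and at 34.6 ± 5.91 CPM in CML-TKI libraries, without overlap, and its adjusted p was 0.0765.

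Bcl6 was the lowest member in CML libraries. It was at 1.49, 1.53, 3.07 and 1.78 CPM in CML 1, 2, 3 and 5, from 11, 8, 16 and 13 counts. In CML-TKI 1 to 4 it was at 8.11, 20.6, 19.6 and 7.75 CPM, from 43, 67, 18 and 30 counts. Every CML-TKI library was above every CML library, and CML-TKI 2 and CML-TKI 3 were above the other two. The means of 1.97 ± 0.747 and 14.0 ± 7.05 CPM (SD, 4 libraries each) gave a log2 fold change of 2.81 (95% interval 1.5 to 4.11) and an adjusted p of 0.0155. The call was lost without CML 1 (adjusted p = 0.0704) or CML 2 (adjusted p = 0.0660), and with CML 1 to 3 summed (adjusted p = 0.219). When each library was thinned to the total of CML-TKI 3, the groups overlapped and Bcl6 was removed by the filter. BCL6 is also abundant in mature myeloid cells and germinal centre B cells, and the granulocyte, monocyte and lymphoid marker sums were higher in the same libraries. CML-TKI 2, with the highest Bcl6, held the highest monocyte and macrophage sum (6987 CPM). CML-TKI 4, with the lowest Bcl6 of its group, held the highest granulocyte sum (8531 CPM). The part of such cells in the Bcl6 level was not tested.

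Bcl6 lies on chromosome 16 at 23965052 to 23988852 of GRCm38, on the minus strand, with 10 exons. RefSeq (GRCm38.p6) lists 2 start sites for it, and the 250 bases upstream of each were searched for short motifs. STAT factors bind TTCNNNGAA, a motif that reads alike on both strands. It was found in 7.02% of the 32851 windows of all genes, and 3 or more matches were found in 0.0274% of them. The inner Bcl6 window, which lies in intron 1, 7569 bases downstream of the outer start, held 3 matches, at positions -168 to -160, -122 to -114 and -88 to -80 relative to that start. The outer window held 1 match, at -118 to -110. The Smad3 window is shown for comparison, as the gene with the lowest adjusted p, and held none. Capitals mark the STAT matches, and each sequence is the minus strand, 5′ to 3′.
Bcl6 inner window, chr16:23981284-23981533: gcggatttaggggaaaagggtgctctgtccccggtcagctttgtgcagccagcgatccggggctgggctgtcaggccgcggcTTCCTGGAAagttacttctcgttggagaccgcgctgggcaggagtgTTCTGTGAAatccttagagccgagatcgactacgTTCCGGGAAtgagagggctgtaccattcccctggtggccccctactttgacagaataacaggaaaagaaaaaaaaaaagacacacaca
Bcl6 outer window, chr16:23988853-23989102: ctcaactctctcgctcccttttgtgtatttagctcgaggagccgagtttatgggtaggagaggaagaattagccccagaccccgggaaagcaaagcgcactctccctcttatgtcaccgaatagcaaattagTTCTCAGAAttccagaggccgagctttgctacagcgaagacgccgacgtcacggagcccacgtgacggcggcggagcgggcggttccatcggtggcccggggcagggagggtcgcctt
Smad3 window, chr9:63757995-63758244: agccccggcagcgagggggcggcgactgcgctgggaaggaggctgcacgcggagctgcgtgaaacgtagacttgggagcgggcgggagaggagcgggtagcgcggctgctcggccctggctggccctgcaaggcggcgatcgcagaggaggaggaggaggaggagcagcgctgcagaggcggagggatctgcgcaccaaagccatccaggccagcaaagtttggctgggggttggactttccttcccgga

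These matches describe the letters only. The study's STAT3 ChIP-seq of LSK cells was not analysed here. The FOXO motif GTAAACA was present in 3.17% of all windows and the SMAD palindrome GTCTAGAC in 0.167%, each searched on both strands. Neither was found in the 10 windows of the 8 members that the table holds. The shorter SMAD core motif CAGAC was present in 42.2% of all windows and was found in the outer Bcl6 window, the Tgfbr2 window and 1 of the Tgfbr1 windows. The FOXO core TGTTT, present in 46.4% of all windows, was found in the windows of Foxo1 and Tgfbr2. The 4 members that were lower or higher without overlap did not share a motif. GC content of the members' windows ran from 52.8% (the second Tgfbr1 window) to 87.6% (Ski), where the median of all windows was 52.4%. It was 76.4% for Foxo3 and 69.2% for Smad3, and likewise 75.2% for Tgfb1 and 74.8% for the first window of Tgfbr1, genes whose groups overlapped.

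Levels of different genes were compared per kilobase of the longest protein-coding transcript. In CML libraries the order of mean levels ran from Tgfb1 (88.6 ± 23.0 CPM per kb) through Smad4 (50 ± 5.92), Smad3 (39.4 ± 3.19), Ski (32.5 ± 2.5) and Foxo3 (25 ± 2.01) to Tgfbr2 (11.6 ± 1.59), Tgfbr1 (9.38 ± 2.65), Smad7 (6.71 ± 2.6), Foxo1 (4.76 ± 0.761) and Bcl6 (0.558 ± 0.212). The ranges of Smad4 and Smad3, of Smad3 and Ski, of Tgfbr2 and Tgfbr1, of Tgfbr1 and Smad7 and of Smad7 and Foxo1 overlapped. In CML-TKI libraries Tgfb1 (64.8 ± 20.9 CPM per kb) and Smad4 (40 ± 8.2) remained at the top. Smad3 was at 11.1 ± 3.87 CPM per kb, below Ski, Tgfbr1 and Foxo3 in the order of means, though its range overlapped those of all 3. Bcl6 reached 3.98 ± 2.0 CPM per kb and overlapped Smad7 and Foxo1. With a shorter Foxo3 transcript of 2889 bases in place of 6848, Foxo3 would stand second in CML libraries, at 59.3 CPM per kb.

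**Figure D3:**
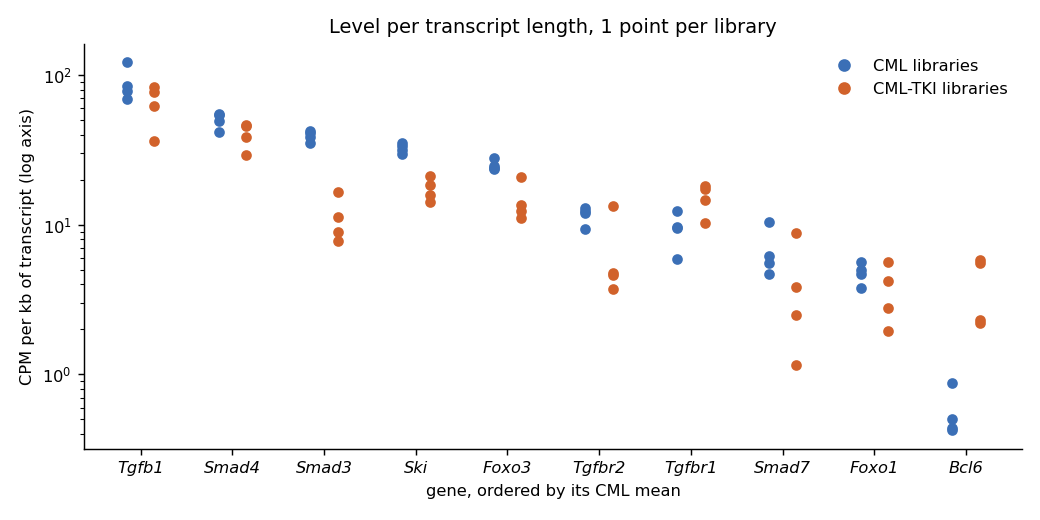
Level of each member per kilobase of its longest protein-coding transcript (CPM per kb, log axis), in CML and CML-TKI libraries. Each point is 1 library, and genes are ordered by their CML mean. Bcl6 moves from the bottom of the CML order, at 0.558 CPM per kb, to the level of Foxo1, while Smad3 falls from 39.4 to 11.1 CPM per kb.

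**Figure D4:**
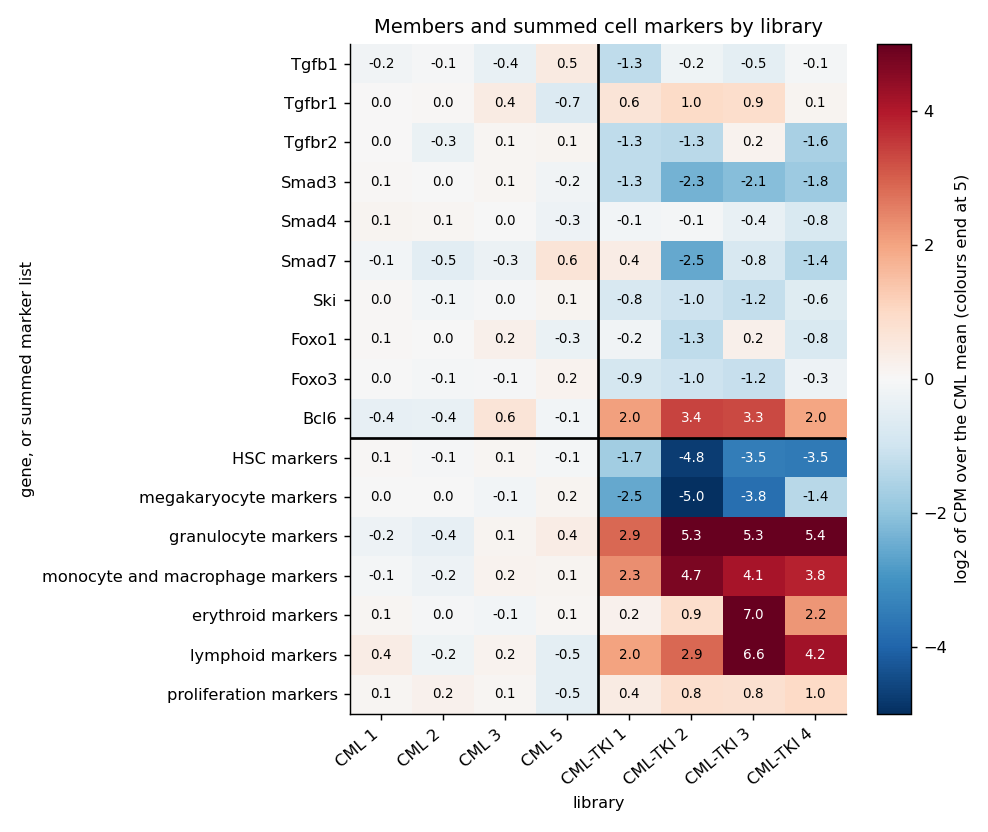
Log2 of the CPM in each library (columns) over the mean of the 4 CML libraries, for the members (upper rows) and the summed cell markers (lower rows), given as numbers and as colours that end at 5. Smad3, Ski and Foxo3 are negative in all 4 CML-TKI libraries and Bcl6 is positive in all 4, as are the granulocyte and the monocyte and macrophage sums, while Tgfbr2 departs in CML-TKI 3 and Smad7 in CML-TKI 1.

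The other genes of the pathways were read from 7 lists without the members. Of 140 listed genes 117 were tested, and 10 of these were called higher and 9 lower, where 6.29% and 3.93% of all genes were, with a median log2 fold change of -0.01. Summing CML 1 to 3 left 1 called higher and 1 lower, where over all genes 102 and 20 were. Among 20 kinases and regulators upstream of FOXO, 2 were called higher and 0 lower by edgeR, near the background of 6.29% and 3.93%, with a median log2 fold change of 0.27. At an unadjusted p under 0.05, 5 genes were higher and 1 was lower. Among all 11937 genes, an unadjusted edgeR p of 0.0496 (Inhba) held rank 3066, with both directions counted together. DESeq2 called 4 higher and 1 lower (1154 and 1003 of all 11937 genes), and limma-voom 3 higher and 1 lower (1244 and 1300). With CML 1 to 3 summed, edgeR called 0 in either direction. Skp2, an F-box protein that directs FOXO1 and CDKN1B to degradation, rose from 24.6 ± 2.91 to 74.5 ± 24.8 CPM (log2 fold change 1.59, adjusted p = 0.00799). Sgk3, a kinase related to AKT, rose from 39.4 ± 7.12 to 105.8 ± 42.5 CPM (log2 fold change 1.42, adjusted p = 0.0277). Skp2 was called in all 8 fits that left out 1 library and Sgk3 in 1 of them, and with CML 1 to 3 summed their adjusted p-values were 0.146 and 0.227.

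Genes of the FOXO family and genes known to be induced by FOXO went in both directions, with 3 called higher and 6 called lower of 30 tested, against the background of 6.29% and 3.93%. Summing CML 1 to 3 left 0 called higher and 1 lower. Txnip, an inhibitor of thioredoxin, fell from 646 ± 75.7 to 169 ± 22.5 CPM (log2 fold change -1.93, adjusted p = 8.04e-04). Gabarapl1, an autophagosome protein, fell from 138 ± 29.5 to 33.4 ± 27.3 CPM (log2 fold change -2.0, adjusted p = 0.0269). Cdkn1a, the cell cycle inhibitor p21, rose from 2.39 ± 0.874 to 22.8 ± 17.5 CPM (log2 fold change 3.27, adjusted p = 0.0110). It also stands on the lists of BCL6-repressed and TGF-beta-induced genes. Txnip was still called with CML 1 to 3 summed (adjusted p = 0.0315), while Gabarapl1 (0.165) and Cdkn1a (0.163) were not. Gabarapl1 was called in 2 of the 8 fits that left out 1 library.

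Of 13 tested partners of BCL6 and genes it is known to repress, 2 were called higher and 0 lower by edgeR, where the background was 6.29% and 3.93%, and their median log2 fold change was -0.54. At an unadjusted p under 0.05, 3 were higher and 3 were lower. DESeq2 called 3 higher and 2 lower (1154 and 1003 of all 11937 genes), and limma-voom 3 higher and 3 lower (1244 and 1300). With CML 1 to 3 summed, edgeR called 0 in either direction. The called genes were Cdkn1a and Irf4, a lymphoid and dendritic cell transcription factor. Irf4 was at 0.273 to 0.767 CPM in CML libraries, about the level of 3 counts, and at 3.77, 42.5, 39.2 and 2.07 CPM in CML-TKI 1 to 4 (adjusted p = 0.0125). The call was lost without CML 1 or CML 5 (adjusted p of at most 0.0522) and with CML 1 to 3 summed (adjusted p = 0.174).

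In the upstream part of the TGF-beta pathway, none of 12 tested ligand and latency genes and none of 23 tested SMAD proteins and regulators passed the edgeR threshold in either direction. At an unadjusted p under 0.05 there were 1 ligand gene (Inhba, higher) and 4 SMAD genes (Ep300, Smad5, Smad6 and Tgif2), named after their values were seen, and limma-voom called 1 and 2 genes of these lists and DESeq2 0 and 3. Summing CML 1 to 3 left 0 calls in both, and among the receptors as well. Of 9 tested receptors, 1 passed, in the lower direction, where 3.93% of all genes were called lower and 6.29% higher. Eng, the co-receptor endoglin of endothelial and stem cells, fell from 172 ± 30.6 to 30.4 ± 21.1 CPM (log2 fold change -2.48, adjusted p = 0.0215). Eng was called in 3 of the 8 fits that left out 1 library and not with CML 1 to 3 summed (adjusted p = 0.159). The sum of 8 endothelial and stromal markers was 102 to 766 CPM in CML and 75.1 to 250 CPM in CML-TKI libraries. Of these 8 markers, 2 were lower without overlap, and their part in the Eng level was not tested. DESeq2 called 1 receptor higher and 3 lower (1154 and 1003 of all 11937 genes), and limma-voom 0 higher and 3 lower (1244 and 1300). Of 16 tested genes induced by TGF-beta, edgeR called 5 higher and 3 lower, where 6.29% and 3.93% of all genes were, and their median log2 fold change was 0.30. Summing CML 1 to 3 left 1 called higher and 0 lower, and at an unadjusted p under 0.05 there were 5 and 3.

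Among the induced genes, Fn1 (fibronectin) rose from 12.5 ± 3.11 to 471 ± 385 CPM (log2 fold change 5.24, adjusted p = 0.00166). Tgfbi, a secreted matrix protein, rose from 19.8 ± 3.92 to 368 ± 208 CPM (log2 fold change 4.21, adjusted p = 8.70e-04). Tgfbi was still called with CML 1 to 3 summed (adjusted p = 0.0385) and Fn1 was not (adjusted p = 0.0595). Macrophages and monocytes make both, and the monocyte and macrophage marker sum of each CML-TKI library exceeded those of the CML group. Id1 and Id2, inhibitors of basic helix-loop-helix factors, rose with log2 fold changes of 3.87 (adjusted p = 0.0139) and 3.98 (adjusted p = 0.0336). CML-TKI 1 held 83.2 CPM of Id1 and 84.7 CPM of Id2, while CML-TKI 2 to 4 held 13.1 to 14.8 CPM and 4.91 to 8.31 CPM. Both were at most 3.69 CPM in the CML libraries, and DESeq2 gave no adjusted p for either. Both calls were lost without CML 1, CML 2 or CML 3, that of Id2 also without CML 5, and with CML 1 to 3 summed their adjusted p-values were 0.194 and 0.304.

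**Figure D5:**
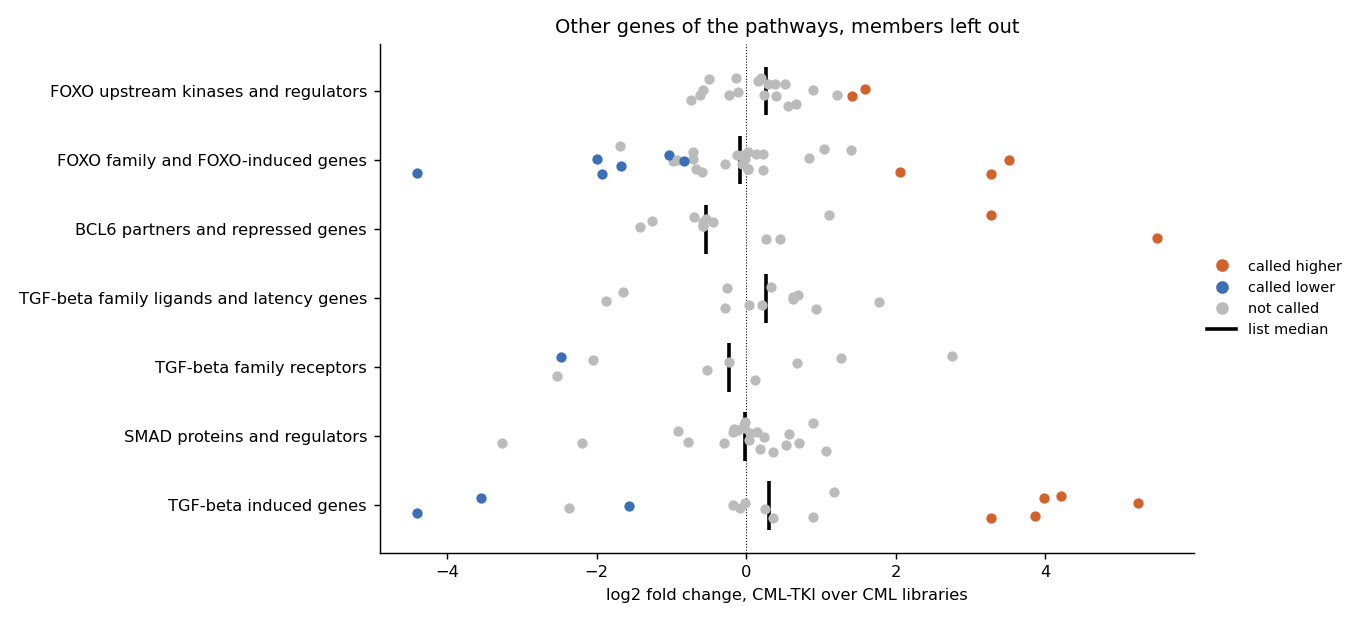
Log2 fold change, CML-TKI over CML libraries (horizontal axis), of each tested gene of the 7 pathway lists (rows), with the members left out. Coloured points passed the adjusted threshold and the black line is the median of the list. Calls stand on both sides of 0 in the FOXO-induced and the TGF-beta-induced lists, and the medians lie between -0.54 and 0.30.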

How the data were processed

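RNA of sorted LSCs was extracted with RNeasy Plus and made into Nextera XT libraries. The authors aligned reads to mm10 with STAR 2.6.1d and used Partek Flow 8.0 to quantify RefSeq transcripts. The deposited values are estimated counts by gene, not normalized, in 1 table of 8 columns. Per library 8.3% to 22.1% of values were not whole, and the estimated counts were rounded. Groups were compared in R 4.3.3 with edgeR 4.0.16, by TMM factors, filterByExpr (minimum count 10, minimum total 15) and the quasi-likelihood test, with Benjamini-Hochberg adjustment over all 11937 genes and a threshold of 0.05. CPM values carry the TMM factors, with a prior count of 2 on the log2 scale. The SE is the log2 fold change over the square root of F.

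Per library, Rn45s, a ribosomal RNA gene, held 20.2% to 38.3% of counts in the CML and 9.23% to 22.5% in the CML-TKI group. Whether libraries are separate animals is not stated, so p-values measure the spread between these libraries, which may be partly technical.

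The members and gene lists were chosen with earlier results of these data known. Named were all members, their nearest relatives, and per list at most 4 called genes with the largest absolute change and a mean log2 CPM of at least 3. Some list genes are counted but not reported by name here. Gene positions are from GENCODE annotation of GRCm38, and promoter windows from RefSeq, with no window used for Smad4 and Smad7. The strand setting of the counting is not given in the sources used here. Alternatives were DESeq2 1.42.0, limma-voom (limma 3.58.1) with quality weights, other scalings and filters, thinning to the smallest total, a replicate block and fewer libraries. The fitting script was tested on simulated data.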

Additional observations from a re-analysis of the deposited data

Results flagged for a closer look

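The highest or lowest library of each group of 4 was compared with its neighbours (gap over range above 0.829) for the members and the marker sums. Of 38 groups, 4 held such a library, where chance gives about 1 in 20. Tgfbr2 was at 107.79 CPM in CML-TKI 3, and the nearest CML-TKI library was at 38.7 CPM. In the same library the erythroid marker sum was 23928 CPM, against 877 CPM in the next, with 99.0% of it from the globin genes Hba-a1 and Hbb-bt while Klf1, Epor and Car1 were below every CML library, and the lymphoid marker sum was 270.03 CPM, against 50.1 CPM. The granulocyte marker sum of CML-TKI 1 was 1474.6 CPM, and the next lowest CML-TKI library was at 7910 CPM. No link between these values was tested.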

How the results depend on the processing

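All 188 member fold changes recomputed under 19 other settings kept their direction, and 167 kept their side of the threshold. With the deposited estimates, 1 member was called higher and 2 lower. None was called higher with at least 50 counts in 4 libraries or after thinning to the smallest total, where Bcl6 was not tested (9 members tested), nor with the libraries numbered 1 to 3 only, a choice made after seeing the data. Called lower were 4 members with limma-voom and 1 with total counts. With CML 1 to 3 summed, 0 members were called in either direction, 1 pathway gene was called higher and 1 lower. Without overlap, 1 member was higher with all counts and 0 after thinning. Leaving out 1 library in turn gave 0 to 1 members called higher, 1 to 3 called lower and 1 to 2 higher without overlap.

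Pathway genes called higher numbered 10, and 5 to 13 with 1 library left out. Those called lower numbered 9, and 2 to 19 with 1 library left out (19 without CML-TKI 1, 2 without CML 1, CML 2 or CML 3). They were 19 with DESeq2, 19 with limma-voom and 3 with libraries numbered 1 to 3 only. Over all genes, 751 higher and 469 lower calls became 1154 and 1003 with DESeq2 and 1244 and 1300 with limma-voom, 102 and 20 with CML 1 to 3 summed, and 364 to 1171 and 141 to 1333 with 1 library left out (fewest without CML 1, most without CML-TKI 1). Over all genes tested the median log2 fold change was -0.14 with total counts without Rn45s and -0.11 with limma-voom. The causes were not tested.

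With the numbers 1 to 3 as a replicate block, 0 members were called (Smad3 log2 fold change -1.94, adjusted p = 0.0504), 2 pathway genes were higher and 1 was lower, and 150 and 43 of all genes were called. Deviations of same-numbered libraries correlated at -0.042, 0.097 and 0.093, and those of other pairs at -0.139 to 0.099. These values cannot decide whether the numbers pair animals, because CML 1 to 3 differed little from each other. Depth limits Bcl6 most, with 8 to 16 counts per CML library.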

Other observations

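CML-TKI 1 held the highest CML-TKI level of many genes that TGF-beta induces, a pattern chosen after the values were seen and not tested, and not shown to be particular to these genes. Of 21 listed genes in the table, 13 had their highest CML-TKI level in CML-TKI 1, 3 in CML-TKI 2, 4 in CML-TKI 3 and 1 in CML-TKI 4. The share in CML-TKI 1 was 61.9% of the list and 31.1% of all tested genes with a count in the group. This library also differed from the others in its HSC marker sum, 473 CPM against 57.9 to 143 CPM. Its chi-square per gene against them was 62.8 to 69.0, a measure that grows with depth. Pairs among CML-TKI 2, 3 and 4 gave 26 to 51.8, so this measure alone does not set CML-TKI 1 apart. Id3, a helix-loop-helix inhibitor, was at 178 CPM in CML-TKI 1 and at 1.03 to 1.23 CPM in CML-TKI 2 to 4. Pmepa1, a feedback inhibitor of the pathway, was at 15.7 CPM in CML-TKI 1, at 0 in the other CML-TKI libraries and at 1.15 to 1.91 CPM in the CML libraries. The same library held the highest Smad7 (37.5 CPM) and Skil (145 CPM) and the lowest Tgfb1 (79.1 CPM) of the CML-TKI group. It also held the lowest granulocyte marker sum and the largest total of the CML-TKI libraries, 5104268 counts.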
